A study of Homo sapiens with 18 samples.

Results

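H1650 is an established human lung adenocarcinoma cell line with an activating EGFR mutation, and 2 of its states were compared here: the Tr-BrM control against the BrM control. The members are the libraries the labels give this line, the condition BrM or Tr-BrM and the treatment control, which makes 6 of the 18 libraries of the series, 3 in each group. All differences are Tr-BrM minus BrM. The series is about S100A9 where EGFR-mutant lung cancer spreads to the brain, and its design text calls the cells brain metastatic derivatives. The meaning of Tr, the nature of the control treatment and whether a group stems from separate cultures or from 1 clone are not stated in the labels used here. Every group of this line carries the same EGFR-mutant background. The other H1650 group, Tr-BrM S100A9-inh, and the cell line PC9 are used only where named.

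Lung adenocarcinomas with a mutant EGFR depend on signalling from this receptor tyrosine kinase to the RAS-MAPK and PI3K pathways, and related receptors, their ligands or a changed cell state can take over part of that signalling. In the brain such cells meet astrocytes, microglia and a dense vascular bed in place of the lung stroma. S100A9 binds calcium, forms a complex with S100A8 and acts both inside cells and as a secreted signal.

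The epithelial identity of an adenocarcinoma line, which the sample titles do not state, was checked against its markers. EPCAM was at 209.5, 212 and 207 CPM in BrM and 244, 239.6 and 247 CPM in Tr-BrM, where CPM are counts per 1000000 counts of the scaled library. Values joined by "against" give BrM replicates 1 to 3 first and Tr-BrM replicates 1 to 3 second. Keratins 7, 8, 18 and 19 and E-cadherin were abundant, with KRT8 at 320670 counts summed over the BrM libraries and 294017 over the Tr-BrM libraries. The lung lineage markers NKX2-1 and NAPSA were near 0, with 3 and 12 counts summed over the 3 BrM libraries and 20 and 23 over the 3 Tr-BrM libraries. Both groups thus carried the epithelial markers and almost none of the lung lineage ones.

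Libraries held 17.40 to 22.89 M counts in BrM and 18.85 to 26.50 M in Tr-BrM, and mitochondrially encoded genes took 3.31 to 3.39% of counts in BrM and 3.94 to 4.04% in Tr-BrM. In 14 genes 1 library differed at least 8-fold from both others of its group. Within its group Tr-BrM replicate 3 was alone high in MPO, EPX and PNMA5 (MPO at 0.156, 0.1097 and 20.9 CPM in replicates 1 to 3). It was alone low in skin barrier genes such as S100A7, LCE3D, KPRP and RNASE7 (S100A7 at 3.38, 2.52 and 0.0972 CPM). MPO was at 5.375, 4.548 and 9.05 CPM in BrM and 16.7, 30.75 and 19.17 CPM in S100A9-inh. For MPO the low Tr-BrM replicates 1 and 2 were thus the ones apart from the other groups. LCE3D also varied within S100A9-inh (0.1101, 0.08437 and 4.026 CPM). BrM replicate 1 was alone low in CEACAM5, MUC13 and SAA1 (CEACAM5 at 0, 0.591 and 0.828 CPM). Without Tr-BrM replicate 3 the log2 difference of MPO was -5.52 in place of 0.12 and that of S100A7 was 5.07 in place of 4.53, and without BrM replicate 1 that of CEACAM5 was -4.32 in place of -3.68. "Rose" and "fell" are used only of genes with an adjusted p under 0.05 (edgeR's quasi-likelihood test, Benjamini-Hochberg over every gene tested), and values after ± are standard errors of the log2 difference (n = 3 against 3).

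Markers of cell types other than epithelium differed between the groups. Of 12 tested astrocyte markers 10 were higher and 2 lower in Tr-BrM, and their summed level was 348 to 355 CPM in BrM and 937 to 970 CPM in Tr-BrM. GFAP, the intermediate filament of astrocytes, was at 14.8, 7.14 and 4.14 CPM in BrM and 52.9, 62.5 and 74.2 CPM in Tr-BrM, so that the groups did not overlap although BrM varied among its libraries. AQP4, the water channel of astrocytes, was called higher but remained low, at 0.226, 0.09097 and 0.118 CPM in BrM and 1.14, 0.878 and 0.923 CPM in Tr-BrM. Of 13 microglia and myeloid markers 11 were higher and 1 lower, with a summed level of 100 to 105 CPM in BrM and 137 to 146 CPM in Tr-BrM. PTPRC, the pan-leukocyte phosphatase, was at 1.22, 1.59 and 1.18 CPM in BrM and 5.98, 7.097 and 5.68 CPM in Tr-BrM, and CD163, a macrophage scavenger receptor, at 4.697, 2.14 and 3.785 against 14.4, 14.3 and 15.5 CPM. All 13 tested myeloid markers were at 1 CPM or more on average in Tr-BrM, and 6 of them were under it in BrM. The list holds 17 markers, and CD68, CX3CR1, P2RY12 and TMEM119 had too few counts to be tested. In that order they had 6, 4, 0 and 7 counts over the BrM libraries and 2, 8, 2 and 26 over the Tr-BrM libraries. Whether the rise among tested myeloid markers extends to these cannot be read from so few counts. Fibroblast and pericyte markers rose in 7 of 9 and fell in 1, from a sum of 30.9 to 32.8 CPM to one of 166 to 186 CPM, most of which was the collagen gene COL3A1 (13.8, 14.2 and 12.2 against 133, 132 and 122 CPM). Oligodendrocyte markers rose in 5 of 7 (212 to 218 against 229 to 233 CPM summed, mostly the widely expressed MBP and CNP). Endothelial markers rose in 4 and fell in 1 of 10 (46.7 to 48.2 against 52.9 to 60.5 CPM). Of 11 T, NK and B cell markers only 4 had enough counts to be tested, and 3 of these rose (2.30 to 2.96 against 7.29 to 8.79 CPM). Without BrM replicate 1 the oligodendrocyte markers rose in 3 of 7, with a median of 0.51 in place of 0.84, DESeq2 gave 4 and the filter of 1 CPM in 3 libraries gave 3 of 5. Without BrM replicate 2 or 3 the endothelial markers fell in 2 of 10. Neuronal markers rose in 1 and fell in 2 of 6, with sums of 52.1 to 54.3 against 29.3 to 30.1 CPM. Of 4 neutrophil markers CSF3R alone rose, 2 fell without Tr-BrM replicate 3 and 2 rose without Tr-BrM replicate 2, and the sum of 3.28, 3.18 and 26.6 CPM in Tr-BrM followed MPO in replicate 3 against 5.82 to 10.9 CPM in BrM. In bulk RNA more cells of a type and more RNA of its genes per cell cannot be told apart. The part of other cells in the results was not tested.

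Of the 60603 gene rows counted, 17937 had enough counts to be tested, and 63.9% of them differed between the groups. In Tr-BrM 5777 genes, or 32.2%, were higher and 5692 genes, or 31.7%, were lower. All libraries of one group lay above all libraries of the other in 67.5% of genes. These shares are the background for every count of list members below, and a list with such shares of its members risen and fallen is like the whole. Over all tested genes large differences were more often rises: 277 genes rose and 82 fell by at least 4 on the log2 scale (16-fold). By at least 6 (64-fold) 91 rose and 17 fell. The excess of large rises lay in genes of low level. Rises of at least 2-fold outnumbered such falls under 1 CPM (890 against 315) and at 1 to 10 CPM (951 against 525). At 10 to 100 CPM they did not (410 against 438), and over 100 CPM falls of that size were the more frequent. Protein-coding genes were called in 70.9% of 14097 and long non-coding genes in 44.1% of 2109. The share called went from 40.6% of genes under 1 CPM to 82.0% of genes over 100 CPM, and among the latter falls (49.9%) outnumbered rises (32.2%).

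The position of a gene on the chromosomes went with the direction of its difference. Chromosome 16 stood lowest: of its 811 tested genes 66.1% fell and 10.4% rose, with a median log2 difference of -0.60 against 0.00 over all tested genes. Chromosomes 13, 18 and 20 had medians of 0.28, 0.25 and 0.23, and chromosome 5 one of -0.18. Every other chromosome had a median between -0.08 and 0.09. In windows of 10 Mb with at least 20 tested genes, medians ran from -0.95 to 1.05 over 276 windows, and the quartiles of the windows lay at -0.06 and 0.10.

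**Figure D1:**
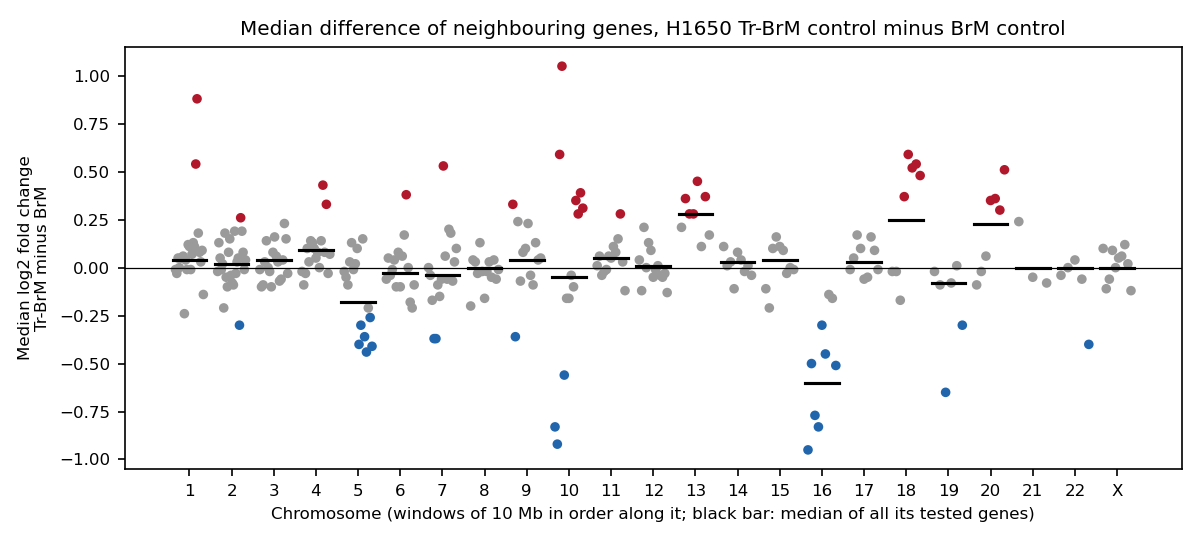
Each point is the median log2 difference (Tr-BrM minus BrM, vertical axis) of the tested genes in 1 window of 10 Mb, in order along each chromosome (horizontal axis), red above 0.25 and blue below -0.25; black bars are chromosome medians. Chromosome 16 lies below 0 throughout with a median of -0.60, and chromosome 10 holds both the highest window at 1.05 and windows at -0.92 and -0.83.

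The 3 windows with the lowest medians were the first 10 Mb of chromosome 16 (-0.95, with 156 of 186 genes lower), the second 10 Mb of chromosome 10 (-0.92, 41 of 50 lower) and the first 10 Mb of chromosome 10 (-0.83). In the first of these lie MSLN (GRCh38 chromosome 16, 760762 to 768865, forward strand), which encodes the mesothelial surface protein mesothelin, the nucleoside diphosphate kinase gene NME3 and the haem oxygenase gene HMOX2. NME3 was at 63.05, 65.2 and 66.01 CPM in BrM and 3.48, 3.585 and 3.98 CPM in Tr-BrM (-4.13 ± 0.078), and HMOX2 at 114, 118 and 115 against 34.1, 32.01 and 32.55 CPM (-1.82 ± 0.043). On chromosome 10 the glycolytic genes PFKP (3066333 to 3137712) and PFKFB3 (6144934 to 6254644) fell with their neighbours, by 1.68 ± 0.035 and 1.80 ± 0.055 on the log2 scale. FAM171A1 and RSU1, in the next window, were at 56.8, 56.8 and 60.4 against 15.55, 18.25 and 16.3 CPM and 111, 112 and 117 against 38.6, 33.4 and 36.97 CPM. ITIH5, a hyaluronan-binding matrix protein gene in the same stretch, went the other way, from 3.297, 3.37 and 2.96 to 34.7, 35.6 and 31.6 CPM.

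The highest windows were 30 to 40 Mb of chromosome 10 (median 1.05), 190 to 200 Mb of chromosome 1 (0.88) and 40 to 50 Mb of chromosome 18 (0.59). In the first of them the endothelial junction gene JCAD was at 23.35, 25.02 and 27.15 CPM in BrM and 106, 109 and 107.5 CPM in Tr-BrM and the zinc finger gene ZNF33A at 19.7, 20.01 and 19.2 against 53.4, 57.9 and 56.75 CPM. NRP1, a co-receptor of semaphorins and VEGF in the same window, fell from 39.8, 38.8 and 39.9 to 8.06, 7.499 and 6.32 CPM. On chromosome 18 the endothelial lipase gene LIPG was at 4.29, 4.23 and 4.97 against 81.5, 83.8 and 80.45 CPM and the myosin gene MYO5B at 54.7, 56.1 and 53.1 against 107, 115 and 116 CPM. On chromosome 1 NEK7 and ASPM, a kinase and a spindle pole protein, rose by 0.54 and 0.42 on the log2 scale, while the glutaredoxin gene GLRX2 fell by 0.62.

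Finer windows showed where the medians changed along a chromosome; the bounds that follow were chosen after those medians were seen. On chromosome 10 the 105 tested genes up to 25 Mb had a median of -0.84, the 56 between 25 and 40 Mb one of 1.13, the 85 between 40 and 60 Mb one of -0.57 and the 206 beyond 100 Mb one of 0.33. The share of genes that rose was 6.67%, 80.4%, 15.3% and 58.7% in the same order. Measured per library against the BrM mean, the medians up to 25 Mb were -0.72, -0.76 and -0.79 in the Tr-BrM replicates, and those between 25 and 40 Mb were 1.02, 1.10 and 0.99. The BrM replicates themselves lay between -0.02 and 0.01 in both stretches. In the S100A9-inh libraries, set against the same BrM reference, the medians were -0.72, -0.76 and -0.68, and 1.14, 1.09 and 1.10. All 6 Tr-BrM libraries thus lay on one side of all 3 BrM libraries in both stretches.

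On chromosome 16 the median was -0.80 up to 40 Mb, where 76.1% of 431 genes fell, and -0.32 beyond, where 54.7% of 380 fell. On chromosome 18 the part from 30 Mb on had a median of 0.51 and the part before it one of -0.07, and on chromosome 20 the corresponding values were 0.35 and -0.03. On chromosome 5 the median was 0.01 up to 90 Mb and -0.35 beyond, where 55.0% of 511 genes fell. Chromosomes 10 and 16 together held 8.50% of tested genes, 14.4% of those that fell and 5.95% of those that rose, and without them 29.7% of the remaining genes fell and 33.1% rose. In PC9 the same contrast gave a median of 0.03 on chromosome 16, and its lowest chromosomes were 13 at -0.45, 12 at -0.38 and 18 at -0.36. Chromosome 10 up to 25 Mb was low in PC9 too (-0.45 over 111 genes), whereas the stretch from 25 to 40 Mb was at -0.39 there and that from 40 to 60 Mb at 0.08. No difference between the lines was tested for these medians. The libraries measure RNA alone, and members of gene lists that lie on chromosomes 10 and 16 are counted apart below where they matter.

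The S100 genes themselves include S100A9 (217, 206 and 199 CPM in BrM, 336, 293 and 292 CPM in Tr-BrM; chromosome 1, 153357854 to 153361027) and its partner S100A8 (25.4, 24.65 and 23.8 against 122, 113 and 102 CPM). Both genes were higher in every Tr-BrM library than in any BrM library, by 0.56 ± 0.049 and 2.19 ± 0.057 on the log2 scale. Of 16 tested S100 genes 9 rose and 5 fell, with a median of 0.20. S100P and S100A12 rose at a few CPM, S100B rose from 1.08, 0.682 and 0.769 to 5.46, 6.29 and 5.44 CPM, and S100A6, a member of the same cluster on chromosome 1, fell by 0.51. S100A7 was called higher, but its values rested on Tr-BrM replicates 1 and 2, and replicate 3 lay within the BrM range. Among 16 tested receptors and adaptors that bind S100A8/A9 or pass on their signal, 4 rose and 5 fell. The receptor gene AGER was at 5.69, 6.69 and 6.92 CPM in BrM and 25.7, 23.05 and 24.7 CPM in Tr-BrM, and EMB, which encodes embigin, at 25.97, 27.15 and 25.97 against 61.9, 74.9 and 71.2 CPM. The adhesion molecules MCAM and ALCAM went down, MCAM from 63.8, 70.2 and 68.7 to 12.3, 10.9 and 11.5 CPM and ALCAM from 46.5, 46.1 and 45.5 to 9.15, 10.2 and 9.62 CPM. TLR4 was at 0.6775, 0.637 and 0.5915 against 1.09, 0.988 and 1.02 CPM and did not pass (adjusted p = 0.0648, edgeR). Scaling by library size alone gave 7 risen and 4 fallen in this list.

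The largest rises were in genes almost silent in BrM. SERPINB13, a protease inhibitor of stratified epithelium, was at 0, 0.136 and 0.05915 CPM in BrM and 24.2, 26.2 and 23.95 CPM in Tr-BrM (chromosome 18, 63586989 to 63604639). LRP2, the endocytic receptor megalin, was at 0.271, 0.273 and 0.414 against 67.8, 67.2 and 69.7 CPM. The giant cadherin FAT2 was at 0.768, 1.36 and 1.12 against 169, 174.5 and 173 CPM. In each of these the replicates of a group lay close together and the groups far apart. EDIL3 and FBN2 encode secreted matrix proteins, FREM2 a basement membrane protein and CPVL a carboxypeptidase, and all 4 were under 1 CPM in every BrM library and above 20 CPM in every Tr-BrM library. The desmosomal cadherin DSG1, the cornified envelope gene SPRR3, the zinc transporter SLC30A2, the ligand WNT6 and LRATD1 completed the 12 genes. WNT6 was at 1.17, 1.77 and 0.887 CPM in BrM and 56.7, 65.2 and 71.9 CPM in Tr-BrM.

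The largest falls began with CASP14, a caspase of keratinocyte differentiation, at 71.6, 72.2 and 71.5 CPM in BrM and 0.624, 1.975 and 0.146 CPM in Tr-BrM. CD44, the hyaluronan receptor, was at 712, 706 and 702 CPM and 15.2, 14.2 and 16.4 CPM (chromosome 11, 35138870 to 35232402), and the galectin gene LGALS1 at 1173, 1167 and 1163 against 33.65, 32.3 and 41.5 CPM. LOXL2, which cross-links collagen, was at 189, 194 and 197 against 4.52, 4.57 and 4.18 CPM. CD44 and LGALS1 were abundant transcripts in BrM, and in all of these genes the groups lay far apart. IL20RB, a subunit of the receptors for interleukins 19, 20 and 24, was at 62.4, 61.2 and 59.8 against 1.66, 0.9145 and 1.36 CPM, and the syndecan SDC2 at 100.1, 99.2 and 98.7 against 3.69, 3.91 and 3.16 CPM. FAXDC2, SYT12, TRPS1, MSLN, CNTNAP3 and CHN1 completed the 12, with log2 differences from -5.92 to -4.65.

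**Figure D2:**
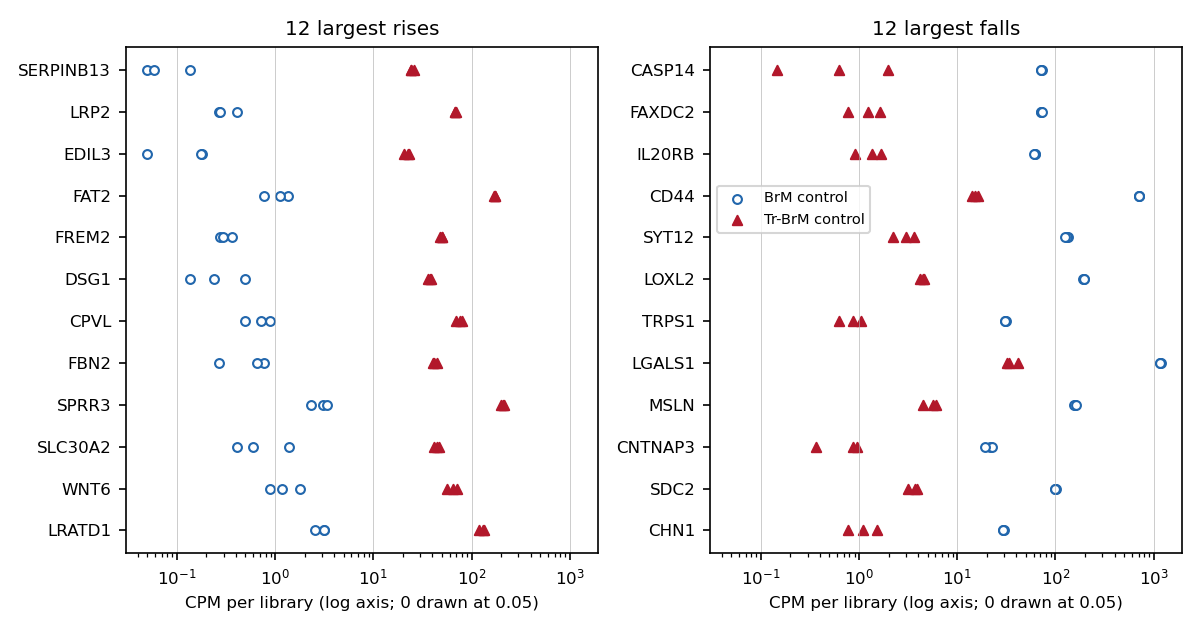
Each row is 1 gene and each symbol 1 library, with its level in CPM on a log axis; circles are BrM control and triangles Tr-BrM control libraries. The plot shows the 12 largest rises (left) and falls (right) among genes of at least 20 CPM in the higher group, and in each row the 2 groups lie more than 10-fold apart.

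Some genes had no count in one group. In BrM 46 called genes had none, of which 18 were at 1 CPM or more in Tr-BrM, and 10 called genes had none in Tr-BrM. ELF5, a transcription factor of mammary, placental and airway epithelium, was at 6.03, 5.52 and 5.44 CPM in Tr-BrM, at least 115-fold higher against a floor of 3 counts over the BrM group. The fibrocystin gene PKHD1 and the placental hormone gene INSL4 were at 6.71, 7.28 and 5.93 and 6.86, 5.63 and 6.12 CPM, RNF128, a ubiquitin ligase gene, at 2.86, 3.37 and 3.21 CPM and the fast troponin gene TNNT3 at 3.33, 2.71 and 2.87 CPM. In the other direction BRINP1 was at 1.99, 1.32 and 1.89 CPM in BrM, at least 38.5-fold above the floor in Tr-BrM, and KLF17 at 0.813, 0.819 and 0.828 CPM. REG1A, REG1B and MUC13 rested on BrM replicates 2 and 3, since replicate 1 had no count of them either.

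Ranked by the change in CPM itself, the largest gain was fibronectin FN1, from 804, 839 and 832 to 2914, 2908 and 3047 CPM, followed by the mitochondrial ribosomal RNA MT-RNR2, keratin 17 (KRT17, 74.3, 73.95 and 77.9 against 1476, 1444 and 1414 CPM) and LY6E, an interferon-inducible surface protein (168, 174 and 170.5 against 1331, 1270.0 and 1257 CPM). MT-CO1, ITGB1, PABPC1 and MT-ND1 followed. The largest losses were ACTB (9422, 9398 and 9341 against 6312, 5973 and 6185 CPM), the ribosomal protein gene RPS2, the glycolytic genes PKM, GAPDH and ENO1, the cyclophilin gene PPIA, ACTG1 and the small heat shock gene HSPB1. ACTB and GAPDH, often taken as references, fell by 0.61 and 0.86. RPS2, on chromosome 16, was at 3297, 3547 and 3596 against 1094, 1212 and 1388 CPM, and it may share reads with processed pseudogenes.

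Receptors of the EGFR family moved apart. EGFR was at 478, 476 and 459 CPM in BrM and 351, 364 and 379 CPM in Tr-BrM, a fall of 0.37 ± 0.032. Its partners rose: ERBB2 was at 189, 184 and 189 against 232, 225 and 229.5 CPM and ERBB3, which lacks an active kinase of its own and signals through its partners, at 33.6, 32.3 and 34.1 against 95.2, 90.4 and 94.7 CPM. ERBB4, a receptor for neuregulins, had 1 count over the BrM libraries and was at 5.56, 3.99 and 4.66 CPM in Tr-BrM, a ratio of 284 with a 95% counting interval from 50.5 to 11200. The groups did not overlap in any of these 4 receptors. Among ligands NRG1, which binds ERBB3 and ERBB4, fell from 21.6, 22.4 and 22.5 to 2.13, 1.21 and 2.04 CPM, HBEGF from 65.3, 63.5 and 62.5 to 19.7, 16.6 and 16.7 CPM and TGFA from 200.3, 191 and 184 to 95.7, 99.5 and 99.45 CPM. EGF fell by 2.11 and EPGN by 0.12. In contrast BTC, a ligand of EGFR and ERBB4, rose from 2.98, 2.68 and 2.66 to 32.55, 30.3 and 27.9 CPM and the neuregulin NRG4 from 0.361, 0.273 and 0.5915 to 3.38, 4.17 and 3.79 CPM. AREG rose by 0.27, and EREG was at 0.9485, 0.9097 and 0.414 against 0.884, 0.988 and 1.31 CPM and did not pass. Of 21 tested genes of the family, with feedback proteins such as ERRFI1 and the ubiquitin ligase CBL, 8 rose and 9 fell (median -0.05).

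Receptors that can signal in place of EGFR also differed in both directions, with 11 of 28 risen and 14 fallen. AXL was at 214, 213 and 204 CPM in BrM and 35.7, 34.6 and 36.97 CPM in Tr-BrM, and FGFR1 and its ligand FGF2 at 47.3, 53.4 and 50.98 against 14.9, 16.3 and 15.98 CPM and 97.4, 97.01 and 92.98 against 19.8, 22.02 and 21.4 CPM. The oncostatin M receptor OSMR was at 206, 202.5 and 204 against 69.2, 64.6 and 66.3 CPM, and LIFR, IL6R and IL6 of the same cytokine family fell by 1.79, 1.24 and 1.49. MET fell by 0.44. Other receptors rose: FGFR2 was at 53.3, 56.9 and 57.25 against 205, 205 and 207 CPM, FGFR3 rose by 1.18, KIT by 2.42 and IGF1R by 0.98. MERTK and TYRO3, the 2 relatives of AXL, rose by 1.30 and 0.93, and PROS1, a ligand of both, went from 3.16, 2.23 and 3.25 to 24.3, 23.9 and 25.8 CPM. Within the TAM receptors and within the FGF receptors, members therefore changed in opposite directions. FGFR2 lies on chromosome 10 beyond 100 Mb, and AGER, KIT and the TAM receptors lie on other chromosomes than 10 and 16.

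**Figure D3:**
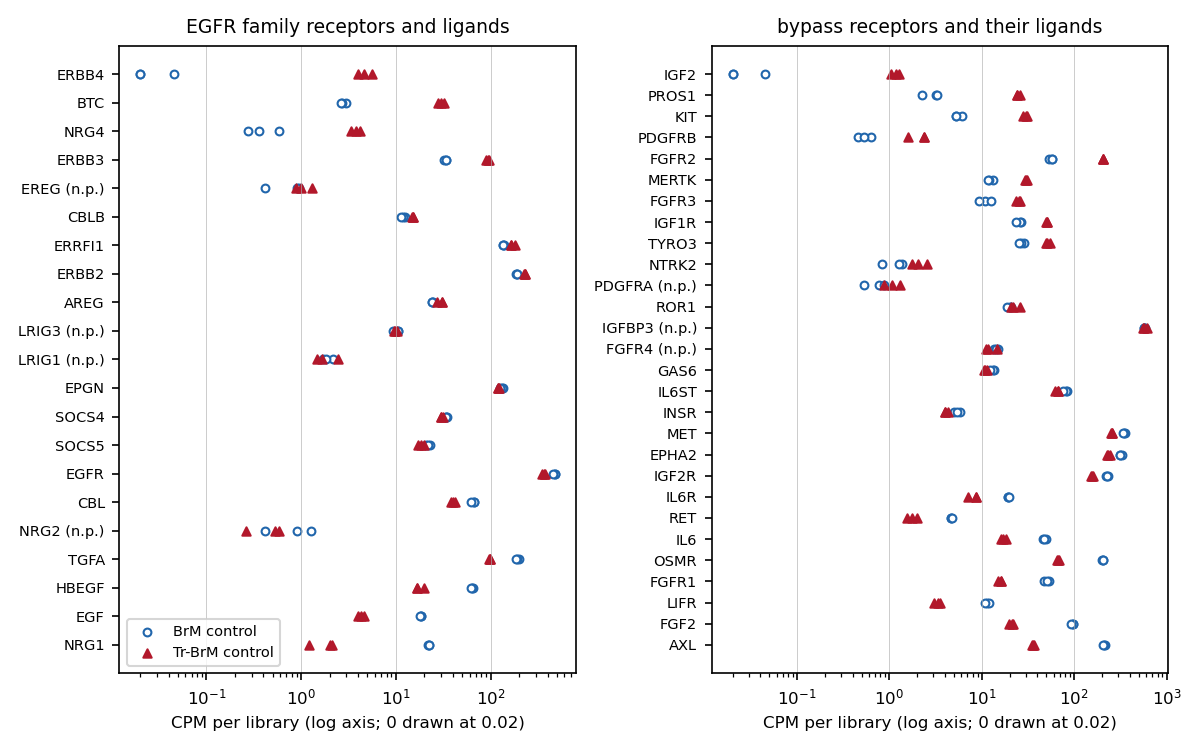
Levels in CPM per library (log axis) of the EGFR family with its ligands and feedback genes (left) and of receptors that can act beside EGFR with their ligands (right), ordered by log2 difference; circles are BrM control and triangles Tr-BrM control libraries, and n.p. marks genes that did not pass. ERBB4, BTC, PROS1 and KIT lie at the top with triangles to the right, and NRG1, EGF, AXL and FGF2 at the bottom with triangles to the left.

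Transcripts downstream of MAPK signalling were mixed, with 9 of 22 risen and 8 fallen. The AP-1 subunit FOSL1 fell from 40.4, 43.98 and 41.9 to 7.12, 5.85 and 5.44 CPM and the membrane protein gene EMP1 by 0.88, while cyclin D1 (CCND1) rose by 0.68 and the feedback inhibitor SPRY1 from 1.99, 1.18 and 2.31 to 12.5, 11.3 and 13.1 CPM. The dual specificity phosphatase DUSP6 rose by 0.61 and DUSP5 fell by 1.21. Of YAP/TEAD targets 7 of 22 rose and 11 fell. Their 2 classical members fell: CCN2 was at 116, 109.7 and 112 CPM in BrM and 12.95, 11.5 and 10.6 CPM in Tr-BrM, and CCN1 at 882, 886 and 887 against 280.2, 278 and 289.6 CPM. ANKRD1, another target of the same factors, rose by 0.91.

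In the TGF-beta and BMP families 14 of 27 rose and 7 fell (median 0.34). The TGF-beta-induced matrix gene TGFBI was at 1037, 1044 and 1057 CPM in BrM and 75.9, 74.55 and 81.3 CPM in Tr-BrM. The ligand BMP7 rose from 66.9, 66.04 and 65.8 to 366, 371.5 and 378 CPM, the pseudoreceptor BAMBI from 29.9, 29.9 and 30.8 to 167, 175 and 168 CPM and the activin antagonist follistatin (FST) from 1.85, 2.18 and 1.715 to 25.3, 21.99 and 23.6 CPM. The receptors went in opposite directions, TGFBR1 by 0.83 and TGFBR2 by -0.86. Wnt genes rose more often than the background, in 20 of 28, and 7 fell (median 0.72). WNT10A, which with WNT6 lies in one cluster on chromosome 2, was at 0.723, 0.864 and 1.065 against 16.4, 15.1 and 18.2 CPM, WNT4 rose by 2.56 at a few CPM, and the secreted antagonist SFRP1 by 3.10. WNT5A, WNT5B and their receptor ROR2, which act without beta-catenin, fell by 0.87, 1.33 and 2.19. AXIN2, a direct beta-catenin target, was at 0.271, 0.182 and 0.355 against 0.312, 0.549 and 0.6802 CPM and did not pass. Of Notch genes 11 of 22 rose and 5 fell, with NOTCH3 at 119, 120.1 and 122 against 237, 263 and 252 CPM and the target HES2 at 2.12, 1.68 and 1.54 against 39.3, 42.7 and 42.4 CPM, while HES1 (0.11) did not pass. Fallen Notch genes numbered 3 with upper quartile scaling, with library size alone or without Tr-BrM replicate 1.

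Retinoic acid is made from retinal by ALDH1A enzymes, is carried by CRABP proteins and acts through RAR and RXR receptors. ALDH1A3 was at 56.6, 57.3 and 56.4 CPM in BrM and 10.04, 12.1 and 12.7 CPM in Tr-BrM, and ALDH1A1 at 0.361, 0.364 and 0.5915 against 3.796, 3.91 and 3.69 CPM. The enzyme that was abundant thus fell and a rare one rose, in all 3 replicates. The carrier CRABP2 went from 1235, 1230.0 and 1251 to 310.5, 288.5 and 295 CPM, and the target gene TGM2 from 564, 584 and 573 to 285, 284 and 285 CPM. RARG and RARA fell by 1.17 and 0.93, and RXRA rose by 1.08. The orphan receptors NR2F1 and NR2F2 moved in opposite directions: NR2F1 was at 21.8, 23.8 and 22.8 against 1.404, 1.02 and 1.603 CPM and NR2F2 at 28.4, 33.3 and 32.35 against 110.4, 114 and 119.8 CPM. CYP26A1, which degrades retinoic acid and is one of its targets, rose from 0.542, 0.591 and 0.887 to 3.95, 3.44 and 2.87 CPM. Of 30 tested genes 14 rose and 14 fell, and the median was -0.01.

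Genes of squamous differentiation, the programme of skin and other stratified epithelia, rose in 24 of 33 and fell in 7, with a median of 1.42. TP63, the transcription factor of basal cells, was at 0.632, 0.591 and 0.355 CPM in BrM and 4.63, 6.69 and 5.34 CPM in Tr-BrM and SOX2 at 1.99, 0.773 and 0.946 against 13.6, 13.5 and 12.6 CPM. Of cornified envelope precursors SPRR3 was at 2.35, 3.09 and 3.37 against 214.5, 201 and 209 CPM and involucrin (IVL) rose by 1.42. The lipid transporter of the barrier ABCA12 was at 8.22, 7.46 and 6.98 against 66.6, 70.02 and 67.9 CPM and TRIM29 at 142, 148 and 156 against 573, 561 and 566 CPM. Desmosomal cadherins split: DSG1 was at 0.497, 0.136 and 0.237 against 35.9, 38.85 and 37.99 CPM, DSC1, DSC2 and DSC3 rose by 3.54, 0.94 and 1.75, and DSG3 fell from 118, 118 and 113 to 22.5, 22.2 and 20.8 CPM. The neighbouring kallikreins split as well, since KLK6 was at 82.3, 78.4 and 82.6 against 414, 404 and 409 CPM and KLK5 at 670.0, 666 and 685.5 against 127, 113 and 121 CPM. Without Tr-BrM replicate 3, the library that lacks several skin genes, 24 members rose and 7 fell, with a median of 1.76.

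Keratins rose in 6 of 16 and fell in 5. KRT17 and KRT6A, keratins of wounded or stressed epithelium, rose, KRT6A from 92.1, 93.3 and 89.7 to 405, 401.5 and 385 CPM, but KRT16, which belongs with them in skin, fell from 539, 544 and 536 to 177, 167 and 159 CPM. KRT13, a keratin of internal squamous epithelium, was at 0.632, 0.591 and 0.651 against 8.22, 9.365 and 8.11 CPM. KRT6A, KRT6B and KRT6C are near-identical and can share reads. Of 13 clade B serpins 8 were tested and 6 of these rose, among them SERPINB9, an inhibitor of granzyme B (3.704, 3.18 and 2.84 against 15.7, 16.1 and 15.2 CPM). SERPINB5 did not pass at 79.85, 83.1 and 75.2 against 83.3, 75.2 and 79.2 CPM. Among untested members SERPINB3 and SERPINB4 had 34 and 32 counts over BrM and 16 and 8 over Tr-BrM. SERPINB10 and SERPINB12 had 3 and 0 against 18 and 11. SERPINB13 and the cadherin DSG1 lie on chromosome 18 beyond 30 Mb, where 65.4% of tested genes rose. Transcription factors of epithelial fate rose in 25 of 41 and fell in 9 (median 0.60). The grainyhead factors GRHL1 and GRHL3 were at 14.1, 16.3 and 14.2 against 71.97, 67.2 and 72.05 CPM and 6.865, 5.82 and 7.22 against 43.5, 42.7 and 45.04 CPM, while GRHL2 did not pass (0.04). ZNF750, a regulator of late epidermal differentiation, was at 0, 0.0455 and 0.118 against 6.29, 5.78 and 5.34 CPM, TFAP2C rose by 1.42, CEBPA by 4.13, and GATA6 fell from 3.34, 3.59 and 3.96 to 0.364, 0.768 and 0.534 CPM.

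Junction genes rose in 23 of 38 and fell in 8. E-cadherin (CDH1) did not differ beyond its error, with 942, 931 and 915.5 CPM in BrM and 902, 939 and 948 CPM in Tr-BrM, and its 95% interval was -0.06 to 0.06. P-cadherin (CDH3), its neighbour on chromosome 16, fell from 734, 734 and 737 to 89.2, 89.00 and 90.5 CPM. Claudin 1 (CLDN1) and the nectin NECTIN4 rose, the latter from 17.6, 15.8 and 16.7 to 97.8, 99.6 and 92.45 CPM. Connexins, the channels through which carcinoma cells can couple to astrocytes, rose from low levels: GJA1 was at 1.58, 1.91 and 2.66 against 35.7, 33.9 and 33.6 CPM, GJB6 at 0.226, 0.0455 and 0.118 against 12.3, 14.6 and 12.1 CPM and GJB2 at 0.361, 0.546 and 0.7098 against 9.15, 9.51 and 9.085 CPM. GJA1 and GJB6 are also astrocyte markers and moved with GFAP as given above. Scaling by library size alone gave 27 risen and 4 fallen in this list.

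Mesenchymal genes fell in 22 of 36 and rose in 11, with a median of -0.45. Of abundant ones SPARC was at 353, 359.9 and 363 CPM in BrM and 45.6, 42.25 and 42.02 CPM in Tr-BrM, the proteoglycan gene SRGN at 181, 176 and 177 against 42.85, 32.9 and 34.4 CPM and the integrin ITGA5 at 103, 109 and 108 against 21.8, 26.6 and 21.9 CPM. FN1 and POSTN, also matrix genes, rose, and vimentin fell by 0.22. The transcription factors of the transition moved apart, since SNAI1 fell by 1.27, TWIST1 fell by 2.45, TWIST2 fell by 2.86 and SNAI2, ZEB1 and ZEB2 rose by 0.94, 1.47 and 3.03. ZEB1 and BAMBI lie between 25 and 40 Mb of chromosome 10 and VIM before 25 Mb, in the stretches given above. COL1A1 and THY1, which rose here, are also among the fibroblast markers that rose. Of integrins and laminins 12 of 34 rose and 15 fell. ITGB4, of the hemidesmosome, was at 241, 239.6 and 239.7 against 459.5, 465 and 455 CPM, whereas ITGA3 and the laminin chain LAMA3 were at 850.3, 861 and 852 against 350.1, 350.4 and 366 CPM and 420.4, 423 and 420.5 against 189, 189.5 and 191 CPM.

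Proteases and inhibitors rose in 21 of 39 and fell in 13. ADAMTS1 was at 1.22, 1.36 and 2.13 against 39.3, 41.3 and 39.3 CPM, MMP10 at 0.542, 0.591 and 0.5915 against 12.5, 12.9 and 12.5 CPM and TMPRSS4 at 0.9485, 0.819 and 0.828 against 14.8, 16.2 and 14.8 CPM. The inhibitor TIMP3 went from 216, 217 and 214.5 to 24.65, 26.9 and 23.03 CPM, the gelatinase MMP2 from 43.2, 46.8 and 47.9 to 10.1, 10.7 and 9.86 CPM and the urokinase receptor PLAUR fell by 1.59. TIMP1 fell by 1.90 and TIMP2 rose by 0.82. Among 36 surface proteins that antibody drugs bind, 16 rose and 14 fell. MUC16 was at 1.94, 1.82 and 2.66 against 52.4, 56.6 and 59.4 CPM, and the folate receptor FOLR1 had 1 count over the BrM libraries and was at 4.73, 5.195 and 5.88 CPM in Tr-BrM. MSLN, whose protein binds that of MUC16, was at 158, 154 and 160.5 against 4.52, 5.63 and 6.12 CPM, so that the pair moved in opposite directions. MUC1 fell from 21.8, 23.9 and 24.55 to 3.38, 3.99 and 4.18 CPM. Of 7 tested mucin and mesothelin genes 3 rose and 4 fell, with a median of -2.59. With the 6 compared libraries alone, or with a filter of 1 CPM in 3 libraries, 6 were tested, 3 rose and 3 fell, and the median was -0.95. Without MSLN and MSLNL on chromosome 16 the median was 0.68. CEACAM5 was called lower, but BrM replicate 1 had no count of it, and the call was lost without BrM replicate 2 or 3 or without Tr-BrM replicate 2 or 3 (log2 difference -3.88 to -3.10).

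Type I interferons act through a complex of transcription factors that binds interferon stimulated response elements in the promoters of antiviral genes. Of 42 tested interferon-stimulated genes 33 were lower and 7 higher in Tr-BrM, against 31.7% lower over all tested genes. OASL was at 278, 285 and 288 CPM in BrM and 44.5, 40.35 and 38.1 CPM in Tr-BrM, IFIT2 at 427, 434 and 426 against 107, 95.95 and 93.1 CPM and IFIT3 at 384, 386 and 381 against 86.6, 81.4 and 74.9 CPM. The cytosolic RNA sensor RIGI and its relative IFIH1 fell by 1.56 and 0.96. The decrease was not uniform: OASL, IFIT3 and IFIT2 had the largest falls of the list, whereas IFI27 was at 0.00 and did not pass, and IFI6 was higher at 1164, 1163 and 1178 against 1686, 1613 and 1633 CPM. IRF7, a factor that amplifies the response, rose from 0.0903, 0.409 and 0.177 to 1.35, 1.94 and 0.972 CPM. The 4 IFIT genes lie on chromosome 10 between 60 and 100 Mb, where the median was -0.13, and without members on chromosomes 10 and 16 the list's median was -0.58 in place of -0.60.

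The promoters of the interferon-stimulated genes are shown because many members that moved together hold one motif there. The windows, from the RefSeq table of promoters on GRCh38.p14, are the 250 bases before each start, and the motif searched on both strands was GAAANNGAAA, with N any base. Of 43 list members 35 were matched in the table, and 22 of these, or 62.9%, held the motif, against 3.71% of all 27305 genes with a window. It stood in the windows of 18 of the 28 matched members that fell, of 3 of the 4 that rose and of 1 of the 2 that did not pass. A match is a description of these letters and not a binding site. The stretches below hold the motif in capitals, on either strand, with overlapping matches merged, and run 5′ to 3′ along the gene's strand: the 5 members with the largest falls that hold it, then the 3 that rose.
IFIT3, chr10:89332410-89332512, forward strand: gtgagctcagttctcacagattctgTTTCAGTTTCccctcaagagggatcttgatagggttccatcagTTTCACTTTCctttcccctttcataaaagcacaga
ISG20, chr15:88638922-88638981, forward strand: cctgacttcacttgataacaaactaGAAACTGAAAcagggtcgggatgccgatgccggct
IFIT1, chr10:89392482-89392554, forward strand: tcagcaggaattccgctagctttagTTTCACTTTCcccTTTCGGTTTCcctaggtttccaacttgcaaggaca
HERC5, chr4:88456969-88457079, forward strand: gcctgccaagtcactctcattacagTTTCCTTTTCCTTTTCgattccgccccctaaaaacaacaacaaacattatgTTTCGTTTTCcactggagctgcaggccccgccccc
IFI44, chr1:78649746-78649805, forward strand: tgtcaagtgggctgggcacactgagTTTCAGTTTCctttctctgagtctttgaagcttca
CXCL10, chr4:76023684-76023743, reverse strand: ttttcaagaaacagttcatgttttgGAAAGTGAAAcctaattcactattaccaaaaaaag
EPSTI1, chr13:42992257-42992316, reverse strand: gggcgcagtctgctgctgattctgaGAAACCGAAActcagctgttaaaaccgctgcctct
IFI6, chr1:27672251-27672373, reverse strand: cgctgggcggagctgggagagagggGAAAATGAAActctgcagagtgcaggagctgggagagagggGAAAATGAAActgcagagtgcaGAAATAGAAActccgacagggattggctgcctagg
IFIT3 and IFIT1 each held 2 matches in the stretch shown, HERC5 and IFI6 held 3, and the others held 1. Members that rose, IFI6 among them, thus carried the same letters as members that fell. For the cholesterol genes the motif searched was TCACNCCAC, a sterol regulatory element, which stood in the window of 1 of 22 matched members, SREBF2, and in 1.09% of all genes.

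Antigen presentation by MHC class I, which interferons also raise, fell in 13 of 18 and rose in 2, or in 1 without BrM replicate 1 or 2 or without Tr-BrM replicate 2. The transactivator NLRC5 was at 43.6, 43.25 and 39.6 CPM in BrM and 16.9, 15.7 and 15.3 CPM in Tr-BrM, the peptide trimmer ERAP2 at 55.8, 59.6 and 52.4 against 21.5, 22.1 and 21.9 CPM and the peptide transporter TAP1 at 103, 99.1 and 95.4 against 64.4, 62.1 and 62.9 CPM. The heavy chain gene HLA-C fell by 0.22, while HLA-E (-0.03) did not pass and B2M rose by 0.11. HLA genes are polymorphic and alike, and reads can be shared among them. MHC class II genes stayed under 4 CPM except CD74 and CTSS, and 6 of 11 rose. These are also genes of myeloid cells, whose markers rose as given above.

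Of chemokines and cytokines 10 of 27 rose and 4 fell. CCL5, which recruits T cells, was at 90.7, 91.8 and 90.7 CPM in BrM and 10.9, 11.8 and 11.6 CPM in Tr-BrM, LIF fell by 1.79 and IL11 by 1.12. CXCL16 was at 42.9, 44.4 and 45.4 against 87.5, 93.98 and 91.1 CPM, and the TNF family ligand TNFSF15 at 6.19, 5.73 and 7.39 against 29.5, 29.7 and 29.05 CPM. CXCL8 was at 5.104, 7.78 and 10.2 against 10.1, 11.8 and 6.61 CPM and did not pass. NF-kappaB subunits and feedback genes fell in 13 of 21, with lipocalin LCN2 at 25.4, 23.6 and 27.1 against 1.14, 1.13 and 0.729 CPM, while TNFAIP2 fell by 1.57 and ICAM1 rose by 1.97. Of complement genes the membrane inhibitors CD55 and CD59 moved by 0.69 and -0.61. C1R, C1S and SERPING1 rose to a few CPM alongside the myeloid and fibroblast markers. Of ligands for immune receptors PVR fell by 0.71, MICA was at 41.6, 41.9 and 43.5 against 19.7, 22.2 and 21.2 CPM, ULBP2 and RAET1L, which like MICA engage NKG2D on killer cells, fell by 1.17 and 2.74, and ULBP1 of the same family rose by 1.05. CD274, which encodes PD-L1, was at 11.4, 11.4 and 11.3 against 13.4, 12.9 and 16.7 CPM, a rise of 0.33.

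**Figure D4:**
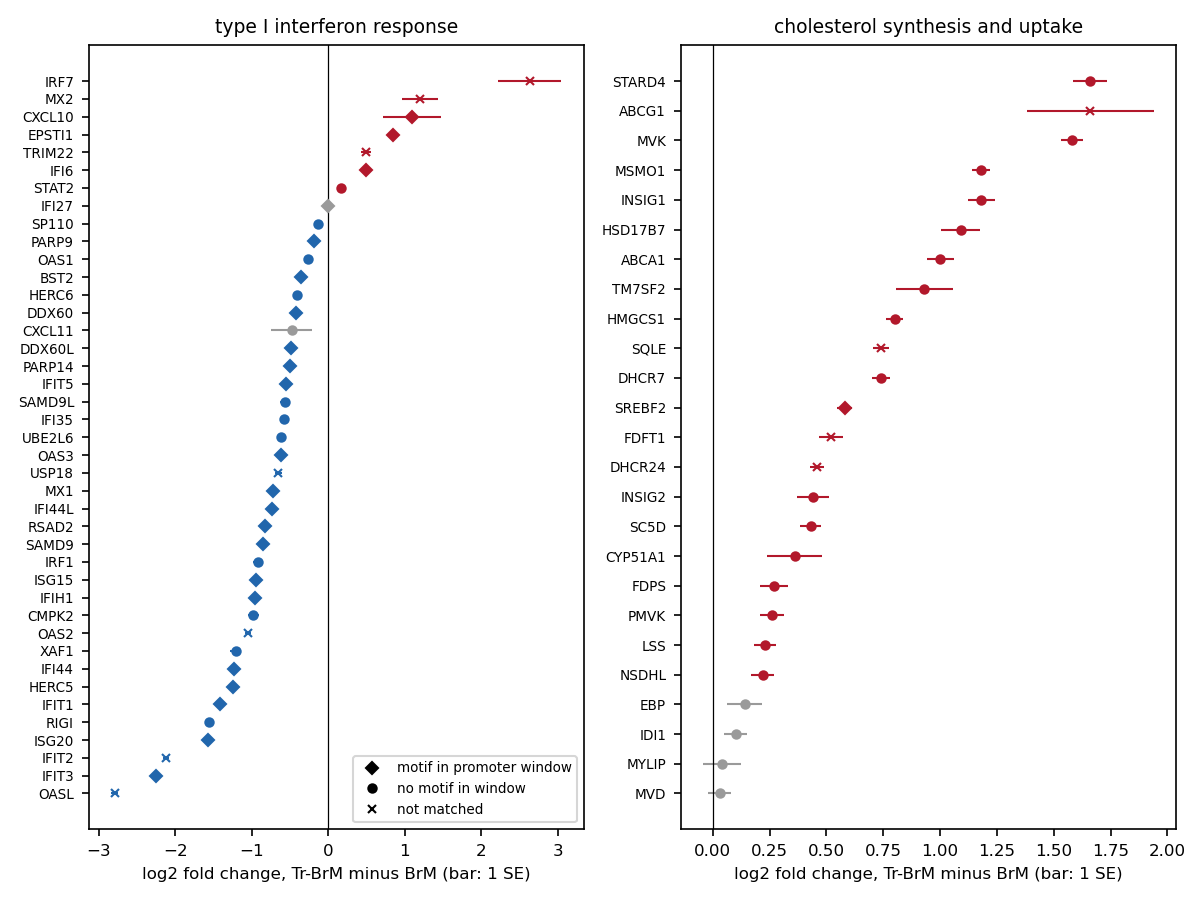
Log2 difference (Tr-BrM minus BrM, horizontal axis, bars 1 SE) of 41 tested members of the type I interferon list (left) and 25 of the cholesterol list (right), red for risen, blue for fallen and grey for not passed; diamonds mark promoter windows with the motif searched. On the left 32 of the 41 lie below 0 in blue, and on the right 21 of the 25 lie above 0 in red and none in blue.

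Cholesterol is made from acetyl-CoA by enzymes that SREBF2 switches on together. Of 27 tested genes of its synthesis and uptake 23 rose and 0 fell, against 32.2% risen over all tested genes. Mevalonate kinase (MVK) was at 28.4, 26.7 and 25.85 CPM in BrM and 84.2, 80.4 and 78.1 CPM in Tr-BrM, MSMO1 at 48.9, 47.5 and 44.8 against 108, 106.5 and 106 CPM and the sterol carrier STARD4 at 12.6, 13.55 and 13.96 against 38.6, 44.7 and 42.85 CPM. INSIG1, a target and brake of the pathway, rose by 1.18 and SREBF2 by 0.58. ABCA1 and ABCG1, which export cholesterol and are driven by oxysterols, both rose. ABCA1 went from 19.6, 20.1 and 20.4 to 38.2, 42.3 and 38.9 CPM, and ABCG1 rose by 1.66. ABCA1 and INSIG1 are themselves among the 27 genes counted, so that total is not of synthesis and uptake alone. Of fatty acid genes 16 of 32 rose and 11 fell. Synthesis genes were among the risen: FASN was at 310.5, 325 and 310.3 against 559, 581 and 572 CPM, the desaturase SCD at 375, 375.5 and 362 against 937, 939.5 and 920.4 CPM and the carrier FABP5 at 45.1, 43.3 and 49.5 against 214, 189 and 189 CPM. The acyl-CoA synthetase ACSL4, which favours polyunsaturated fatty acids, fell from 63.5, 64.6 and 62.9 to 25.2, 24.8 and 26.1 CPM, and the lipid droplet protein gene PLIN4 fell by 5.22.

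Glycolysis and hypoxia genes fell in 30 of 36 and rose in 4, with a median of -0.81. The glucose transporter SLC2A1 was at 325, 328 and 319 CPM in BrM and 134, 133 and 132 CPM in Tr-BrM, and SLC2A3, a form with higher affinity known from neurons, at 39.75, 40.1 and 43.4 against 151, 151 and 145 CPM. PFKP was at 423, 438 and 428 against 137, 131 and 135 CPM, PKM at 3972, 3982 and 3971 against 1791, 1722 and 1776 CPM and the lactate exporter SLC16A3 at 355, 359 and 369 against 94.3, 104 and 96.1 CPM. LDHA fell by 0.78 and the hypoxia marker CA9 fell by 2.23. ALDOA, on chromosome 16, was listed at under 10 CPM in every library, far below the other glycolytic genes, and its reads may have been divided among overlapping annotations. With the 7 members on chromosomes 10 and 16 left out, 23 of 29 fell and 4 rose, and the median was -0.78.

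Amino acid genes rose in 18 of 30 and fell in 10. PHGDH and PSAT1 of serine synthesis rose by 0.72 and 0.89, the glutamate transporter SLC1A3, also an astrocyte marker, was at 23.3, 22.9 and 24.1 against 170.4, 165 and 160.1 CPM, and the pair SLC7A5 and SLC3A2, which together import large amino acids, fell by 1.20 and 0.95. Argininosuccinate synthase (ASS1), without which cells need arginine from outside, was at 46.4, 47.6 and 48.6 against 6.71, 6.73 and 7.87 CPM. Of NRF2 targets 7 of 24 rose and 12 fell. NQO1 was at 616, 606 and 617 against 305, 279 and 293 CPM, AKR1B1 at 434, 446 and 442 against 159, 151 and 158 CPM and glutathione reductase (GSR) at 55.9, 53.7 and 54.00 against 117, 113 and 118 CPM. NQO1 and ABCC1 lie on chromosome 16, and without the 7 members on chromosomes 10 and 16 the list's median went from -0.25 to 0.16.

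Genes of drug metabolism rose in 12 of 22 and fell in 6. CYP24A1, which inactivates vitamin D, was at 1.49, 2.32 and 2.54 CPM in BrM and 56.2, 56.45 and 58.25 CPM in Tr-BrM, the aryl hydrocarbon receptor target CYP1A1 at 17.8, 16.96 and 17.98 against 112, 108 and 106 CPM and CYP2S1 at 6.19, 6.504 and 6.74 against 35.05, 35.3 and 38.3 CPM. CYP1B1, a further target of that receptor, fell from 298, 309.5 and 299 to 172, 182 and 169 CPM, and the epoxide hydrolase EPHX1 from 129, 125 and 127 to 36.8, 33.8 and 36.3 CPM. Of ABC transporters 13 of 21 rose and 3 fell. The efflux pump ABCG2 was at 53.2, 54.2 and 53.2 against 109, 108 and 105 CPM and ABCB1, which encodes P-glycoprotein, at 0.4065, 0.273 and 0.887 against 3.95, 3.73 and 4.42 CPM, whereas ABCC1 was at 136, 139 and 138.5 against 68.5, 72.3 and 69.2 CPM. Members that export drugs thus moved in both directions. Without chromosomes 10 and 16 the medians of the drug metabolism and transporter lists were 1.67 and 0.99, against 0.87 and 0.48 with them.

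Genes of mitosis and of DNA replication moved in opposite directions. Of G2/M genes 30 of 34 rose and 3 fell, with AURKA at 214, 212 and 206 CPM in BrM and 486, 458 and 462 CPM in Tr-BrM, TOP2A at 322, 318 and 308 against 532, 557 and 542 CPM and CCNA2 at 103, 103 and 105 against 178, 174 and 178.5 CPM. AURKA, UBE2C and TPX2 lie on the arm of chromosome 20 whose median was above 0, and CDK1, one of the 3 that fell, lies on chromosome 10. Of replication genes 33 of 46 fell and 5 rose, with MCM10, on chromosome 10, at 60.3, 62.04 and 59.15 against 27.25, 27.1 and 26.6 CPM, while MCM3 fell by 0.51 and PCNA fell by 0.27. Of p53 targets 17 of 25 rose, among them CDKN1A (352, 362 and 359.5 against 515, 506 and 488 CPM), MDM2 (0.92) and BTG2 (1.57), while BAX and BBC3 did not pass. In the BCL2 family, which balances survival and death, 12 of 17 rose and 0 fell. Guardians and killers rose alike: MCL1 and BCL2L1 by 0.35 and 0.30, and BIK, BMF and BAK1 by 1.88, 0.78 and 0.39. BCL2L11, whose protein BIM mediates death on EGFR inhibition, was at 31.1, 31.2 and 27.3 against 30.3, 32.4 and 35.6 CPM and did not pass (log2 difference 0.13, 95% interval -0.01 to 0.27). Heat shock genes fell in 13 of 17 and rose in 2, with a median of -0.19. Both rises and 0 of the falls were at least 2-fold, and with library size alone 9 fell and 3 rose. Stress response genes rose in 10 and fell in 8 of 25, where TRIB3 and ATF4 rose by 0.81 and 0.30, HSPA5 fell by 0.36 and DDIT4 fell by 0.93. Of 13 mitochondrially encoded mRNAs 7 rose and 4 fell, with differences from -0.28 to 0.58, and with library size alone 8 rose and 1 fell.

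**Figure D5:**
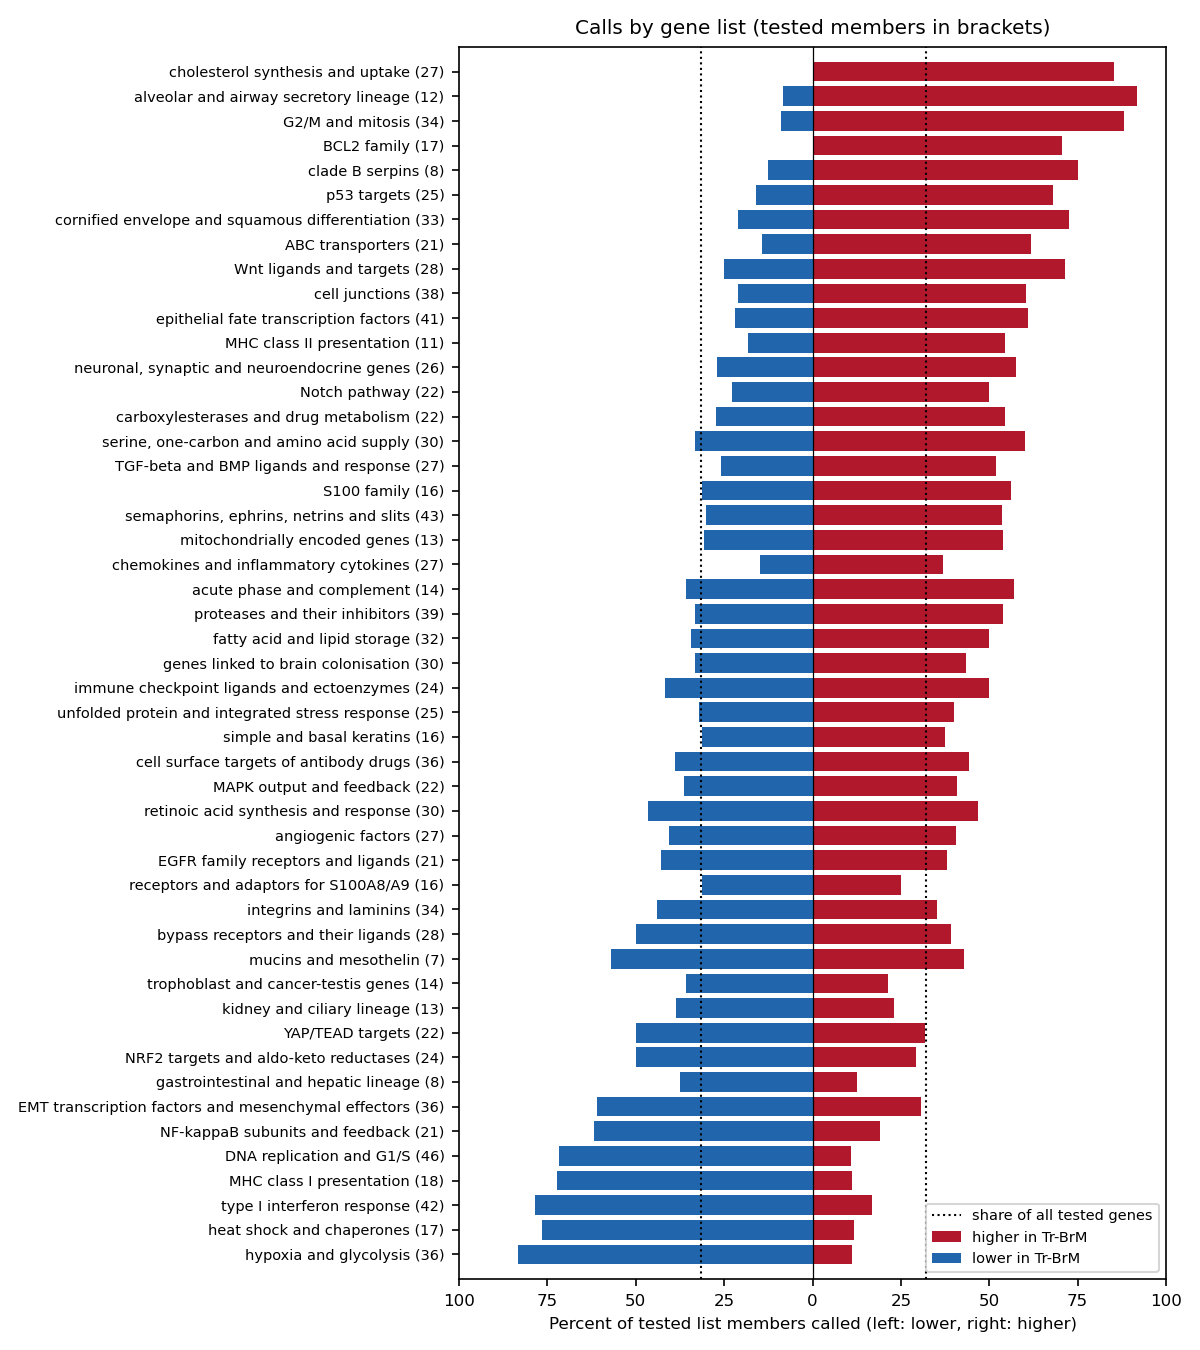
Each bar shows the percent of a list's tested members (number in brackets) that were higher (red, to the right) or lower (blue, to the left) in Tr-BrM, and the dotted lines mark 32.2% and 31.7%, the shares over all tested genes. Cholesterol and G2/M genes lie near the top with 23 of 27 and 30 of 34 risen, and hypoxia and glycolysis at the bottom with 30 of 36 fallen.

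Of 35 genes of the alveolar and airway epithelium 23, among them the surfactant genes SFTPB and SFTPC, had too few counts to be tested, and 11 of the other 12 rose. CAV1, which fell, made up most of the list's summed level in every library, and that sum was 721 to 738 CPM in BrM and 722 to 726 CPM in Tr-BrM. WFDC2 and AGR2, secretory proteins of the airway, were at 3.43, 2.502 and 2.96 against 42.4, 37.2 and 37.02 CPM and 1.897, 2.365 and 2.48 against 27.15, 28.1 and 28.2 CPM, LAMP3, of alveolar type II cells, at 25.97, 26.3 and 26.97 against 68.2, 64.1 and 64.2 CPM, and caveolin 1 (CAV1) fell by 0.54. Of genes earlier linked to brain colonisation 13 of 30 rose and 10 fell. The protocadherin PCDH7, which joins carcinoma cells to astrocytes, was at 18.6, 18.5 and 17.9 CPM in BrM and 87.8, 91.2 and 90.6 CPM in Tr-BrM, the prostaglandin synthase PTGS2 at 0.361, 0.728 and 1.065 against 21.6, 24.03 and 22.8 CPM and NEDD9 at 12.1, 13.7 and 14.55 against 52.4, 55.75 and 54.7 CPM. In the other direction ANGPTL4 was at 50.8, 53.4 and 53.2 against 8.997, 7.79 and 8.02 CPM, the actin bundler FSCN1 at 164, 165 and 177 against 64.3, 65.2 and 68.7 CPM and ST6GALNAC5, a sialyltransferase gene linked to passage into the brain, at 10.1, 10.05 and 10.5 against 2.600, 2.67 and 2.48 CPM. L1CAM, which binds cells to vessels, fell by 0.42, and the neuroserpin gene SERPINI1 stayed under 1 CPM and did not pass.

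Angiogenic factors rose in 11 of 27 and fell in 11. VEGFC, of lymphatic vessels, was at 10.4, 10.9 and 13.8 CPM in BrM and 0, 0.0732 and 0.2915 CPM in Tr-BrM, and VEGFA fell by 0.30. Of genes of neurons and neuroendocrine cells 15 of 26 rose and 7 fell. The synaptic adhesion gene NRXN3 was at 0.226, 0.227 and 0.118 against 17.1, 15.04 and 16.7 CPM, while GABRE and SYT1 fell by 3.27 and 1.19. SYP and SNAP25, general markers of synapses, did not pass. Guidance genes rose in 23 of 43 and fell in 13: the semaphorin SEMA3D was at 44.1, 41.5 and 41.05 against 166, 169 and 166 CPM, the receptor PLXNB1 at 55.7, 52.9 and 55.01 against 129.7, 129.9 and 135 CPM, and SLIT3, whose receptor ROBO1 fell by 0.36, at 18.5, 17.65 and 17.98 against 0.676, 0.878 and 0.583 CPM.

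For 16 genes the difference was set against the same contrast in PC9, a second lung adenocarcinoma line with a mutant EGFR, in 1 edgeR model of 18 libraries, in which 54.6% of 19076 genes differed between the lines. All 16 passed, and in 6 of them the lines were called in opposite directions. FN1 rose by 1.84 ± 0.029 in H1650 and changed by -4.73 ± 0.038 in PC9, and CD44 changed by -5.54 ± 0.057 and 0.64 ± 0.038. In the scaling of that model CD44 in PC9 was at 1450, 1450 and 1480 CPM in BrM and 2290, 2270 and 2270 CPM in Tr-BrM, so that the receptor was nearly lost in one line and rose in the other. EGFR, MET and HMGCS1 also had opposite signs, at 0.52 ± 0.032, 0.25 ± 0.039 and -0.70 ± 0.039 in PC9. KRT17, S100A8, S100A9 and ALDH1A1 rose in both lines and AXL, VIM and IFIT2 fell in both, with differences between the lines in size. ALDH1A3 and VEGFC did not pass in PC9, and CDH1 did not in H1650.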

How the data were processed

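Poly-A selected RNA of the cell lines was sequenced, and the authors deposited raw counts per gene, 1 column per library. Per the submitters' processing notes, STAR, the build GRCh38, R 4.0.1 and DESeq2 1.28.1 were used. The version given for STAR is the same as that of R and was left out as doubtful. For the counting tool, annotation release and strand setting the sources used here give nothing, so reads of overlapping or antisense genes may be mixed. Groups came from the labels. Nothing in the labels says that libraries of a group are separate cultures, and p-values then measure only the spread between these libraries, which may be technical. Within a group no 2 libraries were identical or closer than sampling noise.

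The counts were tested with edgeR 4.0.16 in R 4.3.3 (filterByExpr, TMM scaling, quasi-likelihood F test, Benjamini-Hochberg adjustment, threshold 0.05). All 9 H1650 libraries shared one estimate of the spread, and only the contrast of the 2 control groups was read. The common biological coefficient of variation was 0.0335. The difference between lines came from an interaction in 1 model of 18 libraries. CPM are counts per 1000000 of the TMM-scaled library total. Standard errors are the log2 difference divided by the square root of F, and intervals use the t distribution of the test. Against a group with 0 counts, folds use a floor of 3 counts in that whole group, and ratios on 1 to 3 counts carry 95% intervals for counting error only. Counts of 17015 genes were simulated for this comparison, with 67, 67 and 66 genes changed 1.5-fold, 2-fold and 4-fold. Of these 85.1%, 97% and 100% were recovered in the same order, and 3.59% of calls were false. In the data 63.9% of tested genes differed, a far larger share than was simulated. The simulated rates therefore do not give the recovery or the share of false calls in the comparison itself.

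Chromosome positions and classes came from GENCODE 29 on GRCh38, and promoter windows from RefSeq. The genes to be named were S100A9, S100A8, ALDH1A1, ALDH1A3 and EGFR, the 12 largest rises and falls among genes of at least 20 CPM in the higher group, the 8 largest gains and losses of CPM, up to 5 genes per direction with 0 counts in one group, the 4 members of smallest p in each list and up to 3 per named window. Other members are named as examples, chosen after their values were seen. The comparison and all gene lists were chosen with earlier results of these data known, and no list test was run. Of the genes tested, 9 are counted in their lists but not reported here by name. Alternatives were DESeq2 1.42.0, other scalings and filters, the 6 libraries alone and leaving out each library.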

Additional observations from a re-analysis of the deposited data

Results flagged for a closer look

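The change from BrM to Tr-BrM differed between H1650 and PC9 in each of the 16 genes for which this was tested, by the interaction term in edgeR. The values of 15 of them follow, as the H1650 change minus the PC9 change on the log2 scale. FN1 (6.58), HMGCS1 (1.51), VIM (1.33) and CDH1 (0.22) were above 0. VEGFC (-6.30), CD44 (-6.18), S100A8 (-5.05), KRT17 (-2.67), ALDH1A1 (-2.52), ALDH1A3 (-2.27), S100A9 (-2.05), IFIT2 (-1.38), EGFR (-0.88), AXL (-0.73) and MET (-0.68) were below 0. Some of these sizes rest on a group mean under 1 CPM. S100A8 went from 0.227 to 34.8 CPM in PC9 and from 22.8 to 104 CPM in H1650. KRT17 went from 0.327 to 40.8 CPM in PC9 and from 69.8 to 1340 CPM in H1650. In H1650 ALDH1A1 was at 0.407 CPM in BrM and VEGFC at 0.113 CPM in Tr-BrM. Since 54.6% of all genes in that model differed between the lines, 16 of 16 was a larger share than the background, for genes chosen with results of H1650 known. The 2 lines differ in every library, so that the line and whatever else differed between the experiments cannot be told apart.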

How the results depend on the processing

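No paired analysis was possible because the labels give the libraries codes that are not shared between the groups. The numbers of genes that rose and fell stayed within 1.5 times the values reported under every alternative: leaving out 1 library gave 5475 to 5697 risen and 5311 to 5523 fallen, DESeq2 gave 5434 and 5222, and no filter on low counts gave 6046 and 6017. Library size alone gave 6802 and 4672, which moved the share of rises among calls from 50.4 to 59.3% and the median of all genes by 0.08. The line differences kept direction and call under all alternatives run. Without Tr-BrM replicate 3, MPO stood at -5.52, PNMA5 at -6.31, EPX at -2.65 and ELANE at -2.47, reversed from the values with it. Over the settings that leave out 1 library, the highest values were 0.81, 1.07, 0.70 and 0.98 in the same order. Of the list medians 675 values moved by less than the spread between replicates and 66 by more. Calls of REG1A, REG1B, MUC13 and CEACAM5, all under 1 CPM, were lost with DESeq2, and those of CEACAM5, REG1A and REG1B also without single libraries. The cause was not tested. Genes near 0.1 CPM rest on about 3 counts a library, and differences there were not detectable at this depth unless large.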

Other observations

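Of 14 tested trophoblast and cancer-testis genes 3 rose and 5 fell, with a median log2 difference of -0.09. The placental hormone gene INSL4 rose, while CGB8, a chorionic gonadotropin subunit gene with near-identical copies, went from 1.897, 1.68 and 1.48 CPM in BrM to 0.156, 0.256 and 0.146 CPM in Tr-BrM. PEG10, an imprinted gene derived from a retrotransposon, was at 496, 482 and 481 and 262, 277 and 271 CPM and fell, and the tumour antigen gene PRAME was at 41.55, 40.3 and 43.8 and 42.2, 35.3 and 38.2 CPM and did not pass. Of 13 kidney and ciliary genes 3 rose and 5 fell. Among them LRP2 rose and CUBN, whose protein cubilin works with megalin in endocytosis, fell from 1.99, 1.59 and 2.19 to 0.208, 0.0366 and 0.0972 CPM, so that the receptor and its partner moved in opposite directions. CUBN lies on chromosome 10 in the stretch up to 25 Mb whose median was -0.84. PKD1, on chromosome 16, fell from 50.8, 54.3 and 52.2 to 28.9, 27.1 and 26.4 CPM and PKHD1, without a count in BrM, rose. Of 35 gastrointestinal and hepatic genes 8 were tested, of which 1 rose and 3 fell. With DESeq2, with the 6 compared libraries alone or with a filter of 1 CPM in 3 libraries 1 fell, and leaving out 1 library gave 2 or 3 fallen. In this list CPS1, of the urea cycle, was at 0.4065, 0.546 and 0.532 and 1.98, 2.16 and 2.09 CPM, and SERPINA1, the antitrypsin gene, at 8.085, 6.28 and 6.51 and 0.936, 0.512 and 0.6802 CPM.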
